A study of Mus musculus with 3 samples.

Results

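The comparison examined here set αTC1-6 cells infected for 16 h with an adenovirus for NIK against the same cells infected for 16 h with an adenovirus for β-galactosidase (β-Gal), the viral control. αTC1-6 is a cloned mouse tumour line of glucagon-producing pancreatic α cells. These are 2 of the 3 libraries of the study; the other was infected with NIK(KA), a variant whose mutation the labels do not spell out, and its values are given beside the others where they help. Each group held 1 library, so there is no replicate check, no p-value is given, and every difference is one between single libraries. RNA was measured by sequencing and deposited as FPKM, fragments scaled to gene length and to the reads counted in the library. Totals, recovered from the steps between FPKM values, were 15523580 reads for NIK, 16652922 for NIK(KA) and 18629668 for β-Gal. The rule for a higher or lower gene was a difference of at least 1 in size between log2(FPKM + 1) in NIK and in β-Gal. This is 2-fold on that scale, where low genes differ by less than their reads do. Of 26584 genes detected in at least 1 library, 12950 averaged at least 1 FPKM across the 3 libraries and were compared, with Map3k14 left out. Folds in the text are ratios of reads per library total, followed in parentheses by the exact 95% interval of that ratio, which covers counting error only.

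In the NIK library 666 genes were higher than in β-Gal, or 5.14% of those compared, and 192 were lower, or 1.48%. Protein-coding genes made up 11150 of those compared, with 561 higher (5.03%) and 120 lower (1.08%). Map3k14, which encodes NIK, had an FPKM of 8.42 in NIK, 12.1 in NIK(KA) and 5.35 in β-Gal, and 1 other annotated gene shares an exon with it on the same strand. The species and extent of the coding sequence in the virus are not stated in the labels, so how far reads of the transgene entered these values is unknown. All 12 α-cell markers were detected and none passed the 2-fold rule, which Chga missed narrowly. With TPM or upper-quartile scaling 1 of the 12, Chga, was lower by the rule, and with a pseudocount of 0.1 this count was 2. Their FPKM summed to 9057 in NIK, 13320 in NIK(KA) and 15250 in β-Gal, with Gcg, the glucagon gene, at 6955, 10197 and 12093 in the same order. In bulk RNA, fewer cells that carry a transcript and less of it per cell cannot be told apart.

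NIK, the NF-κB-inducing kinase, is the kinase at the head of the non-canonical NF-κB pathway. In resting cells it is kept scarce by a ubiquitin ligase complex of TRAF and cIAP proteins. When it accumulates, it activates IKKα, the p100 precursor is trimmed to p52, and p52 with RelB enters the nucleus and binds κB elements in promoters and enhancers. In lymphoid tissue this pathway acts downstream of receptors such as CD40 and directs organ development and B-cell survival, and its raised activity in islets has been studied in relation to diabetes.

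Promoter sequences are shown for the leading members, because κB elements are the sites that NF-κB dimers bind. They are the 250 bases before the annotated start from RefSeq on GRCm38.p6, written 5′ to 3′ on the strand of the gene. Capitals mark matches to a κB-type motif of 10 letters, searched on both strands. The 4 genes are the first among the 10 protein-coding genes with the largest positive differences whose window held a match. Spib lies at chr7:44532072-44532321 on the minus strand, Madcam1 at chr10:79664309-79664558 and Cxcl1 at chr5:90890995-90891244 on the plus strand, and Csf1 at chr3:107760470-107760719 on the minus strand.
Spib: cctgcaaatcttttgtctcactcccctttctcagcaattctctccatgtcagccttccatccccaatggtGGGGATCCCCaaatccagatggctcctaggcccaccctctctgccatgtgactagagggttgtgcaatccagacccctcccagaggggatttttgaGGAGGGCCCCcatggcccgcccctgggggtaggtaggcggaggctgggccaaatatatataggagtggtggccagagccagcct
Madcam1: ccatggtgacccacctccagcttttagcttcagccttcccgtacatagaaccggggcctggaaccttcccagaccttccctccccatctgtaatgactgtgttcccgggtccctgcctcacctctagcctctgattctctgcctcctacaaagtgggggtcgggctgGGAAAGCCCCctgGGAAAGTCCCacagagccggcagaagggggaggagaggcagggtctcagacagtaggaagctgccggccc
Cxcl1: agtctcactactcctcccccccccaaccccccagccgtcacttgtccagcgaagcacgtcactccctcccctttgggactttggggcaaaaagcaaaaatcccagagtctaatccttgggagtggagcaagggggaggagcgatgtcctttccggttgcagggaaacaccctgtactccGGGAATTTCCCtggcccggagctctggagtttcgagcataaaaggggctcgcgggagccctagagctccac
Csf1: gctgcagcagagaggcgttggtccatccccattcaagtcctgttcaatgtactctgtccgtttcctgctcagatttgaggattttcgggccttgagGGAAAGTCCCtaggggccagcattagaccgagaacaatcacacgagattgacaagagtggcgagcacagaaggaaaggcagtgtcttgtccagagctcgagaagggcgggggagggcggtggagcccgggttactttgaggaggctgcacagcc

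In Spib the matches began 180 and 84 bases before the start, and in Madcam1 they began 83 and 70 bases before it. The Cxcl1 matches began 71 and 70 bases before the start and overlap, so that they form 1 run of capitals. In Csf1 the match began 154 bases before the start and has the same letters, GGAAAGTCCC, as the second match of Madcam1. Of the other 6 genes among the 10, Neurl3 and Nfkbie each had 1 match, Srgn, Igsf9 and C3 had 0, and Mmp9 had no window in the table. No match says only that these letters are not in that window.

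In these 4 genes both other libraries held few reads. Spib, an ETS-family factor of B cells and plasmacytoid dendritic cells, had an FPKM of 252 in NIK, 0.243 in NIK(KA) and 0.326 in β-Gal, a 772-fold higher level in NIK (406 to 1689). Madcam1, an adhesion molecule of mucosal vessels, was at 168 FPKM in NIK, 0.151 in NIK(KA) and 0 in β-Gal. With 3104 reads in NIK and 0 in β-Gal it was at least 1242-fold higher, taking 3 reads as the limit that a count of 0 allows. Cxcl1, a neutrophil-attracting chemokine, had 2688 reads in NIK, 0 in NIK(KA) and 1 in β-Gal, a ratio of 3226 (578 to 127460). Csf1, the growth factor of macrophages, was at 132 FPKM in NIK, 0.936 in NIK(KA) and 0.918 in β-Gal, 144-fold higher (103 to 208). In each of the 4 the NIK library stood far above the other two, which were close to 0.

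Matches to the κB-type motif were counted over all protein-coding genes with a window. They were in 12 of 25 windows (48%) of genes at least 16-fold higher in NIK on the log2(FPKM + 1) scale, and in 71 of 432 windows (16.4%) of all higher genes. Among lower genes 7 of 94 windows had a match (7.45%), and among genes within 2-fold 684 of 8331 did (8.21%). Over all 27018 windows of the table the share was 7.01%. Median GC content was 57.6% in the 16-fold group, 60.4% in all higher genes, 60% in lower genes and 60.4% in genes within 2-fold. Within 4 bands of GC content, under 45%, 45 to 55%, 55 to 65% and from 65% up, the share was 18.5%, 10.4%, 18.8% and 17.9% for higher genes, and 3.72%, 5.21%, 8.20% and 11.1% for genes within 2-fold. Higher genes had the larger share in each of the 4 bands, with 27 higher genes in the lowest one. For lower genes the shares were 0%, 4.35%, 14.7% and 3.70%, over 10, 23, 34 and 27 windows.

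Other motifs were also searched on both strands and counted separately where they share bases. The AP-1 and interferon-response types, like the κB type, had a larger share among higher genes than among genes within 2-fold. The AP-1 type (TGANTCA) matched 8.56% of windows of higher genes, 10.6% of lower genes and 3.46% of genes within 2-fold, with 6.87% over all windows of the table. The interferon-response type (GAAA, any 2 bases, GAAA) matched 5.79% of higher, 3.19% of lower and 2.17% of genes within 2-fold, with 3.04% over the table. The STAT-binding type (TTCNNNGAA) matched 5.56%, 6.38% and 5.70% in the same order, and 7.18% over the table. The ETS type (GGAAGTG) was less frequent in both sets past the rule, at 7.18% of higher and 5.32% of lower genes against 11.6% of genes within 2-fold and 8.63% over the table. The cAMP-response type (TGACGTCA) matched 2.31%, 3.19% and 3.06%, with 1.62% over the table, and the GC box (GGGCGG) 58.1%, 56.4% and 61.5%, with 32.9% over the table. In the 25 windows of genes at least 16-fold higher, the AP-1 type matched 3, and the interferon-response and STAT-binding types 2 each. The ETS type matched 1 of these windows, the cAMP-response type 0 and the GC box 13. Shares within bands of GC content were counted for the κB type only. A match is a stretch of letters and not a shown binding site.

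**Figure D1:**
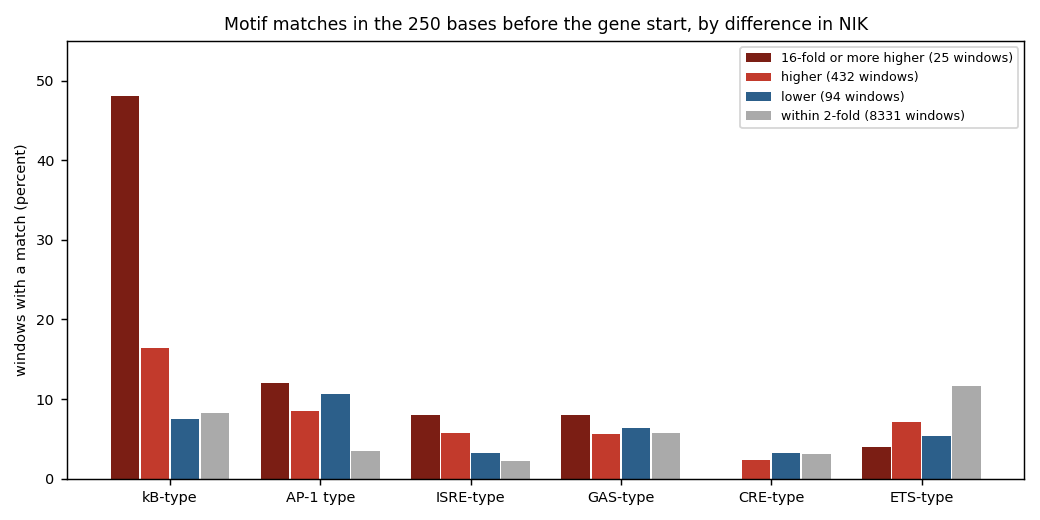
Share of 250-base windows before the gene start (percent) that hold a match to each of 6 motifs, for protein-coding genes at least 16-fold higher, all higher genes, lower genes and genes within 2-fold in NIK against β-Gal. The κB-type bars stand at 48%, 16.4%, 7.45% and 8.21%.

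The difference ran mostly upward and was deepest in genes with low levels in β-Gal. Among protein-coding genes 77 were at least 8-fold higher and 2 at least 8-fold lower on the log2(FPKM + 1) scale, and 208 were at least 4-fold higher and 8 at least 4-fold lower. The median difference was 1.69 among higher genes, -1.24 among lower genes and -0.02 among all protein-coding genes. Higher genes took 4.74% of reads in NIK and 1.28% in β-Gal, and lower genes took 0.454% in NIK and 1.54% in β-Gal. Of the higher genes 30 had 0 reads in β-Gal and 156 had an FPKM under 1 there. Genes that passed the filter only through their level in NIK had to be higher, so shares among the 10891 genes with a β-Gal FPKM of at least 1 are also given. There 405 were higher (3.72%) and 120 lower (1.1%). A gene under 1 FPKM in β-Gal cannot be lower by the rule, so this cut could remove only higher genes. Lower genes that passed the filter through β-Gal alone stay in it. By level in β-Gal the share of higher genes was 10.5% at 1 to 5 FPKM, 4.27% at 5 to 20, 1.72% at 20 to 100 and 0.684% above 100, where 1.22% were lower.

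**Figure D2:**
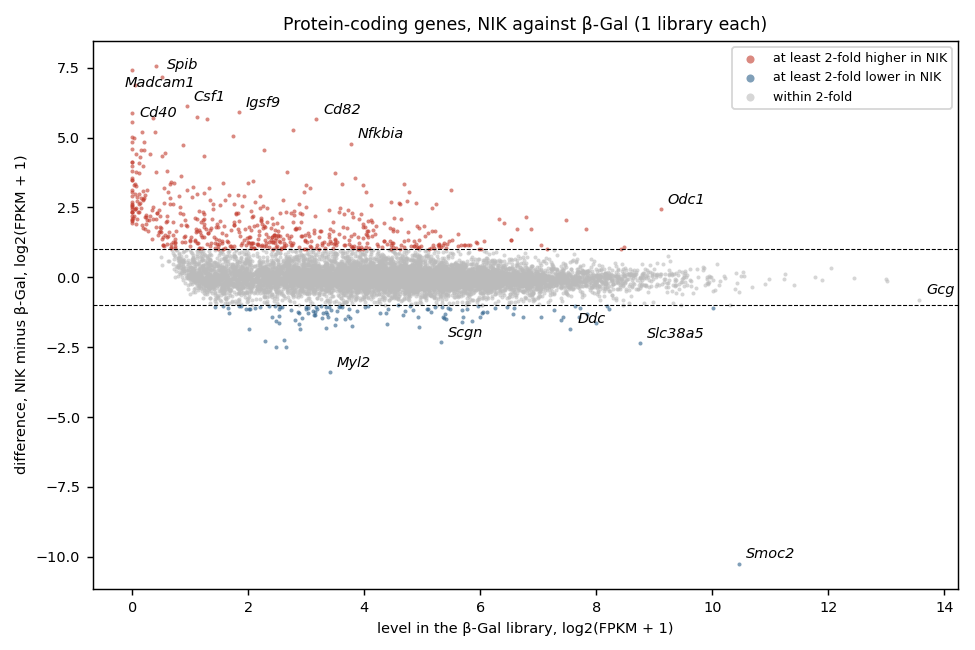
Difference of log2(FPKM + 1) between NIK and β-Gal against the level in β-Gal for 11150 protein-coding genes, 1 library each, with dashed lines at the 2-fold rule. The 561 higher genes crowd at low levels in β-Gal, and Smoc2 stands alone at -10.24.

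Abundant transcripts show where the NIK library differed most in absolute amount. The largest gain in FPKM was in Odc1, ornithine decarboxylase, the first enzyme of polyamine synthesis (chromosome 12, 17544794 to 17551505, GRCm38), with 2988 FPKM in NIK, 587 in NIK(KA) and 552 in β-Gal, 5.41-fold higher (5.31 to 5.53). Tmsb4x, which encodes the actin-binding peptide thymosin β4, had 744 FPKM in NIK, 158 in NIK(KA) and 177 in β-Gal. Vgf, a peptide precursor of secretory granules, had 740, 350 and 224 FPKM in NIK, NIK(KA) and β-Gal, so that NIK(KA) lay between the other two. Cd82 (452 FPKM in NIK against 8.03 in β-Gal), Eno2 (762 against 356), Cx3cl1 (490 against 109) and Nfkbia (373 against 12.6) also passed the rule. They encode a tetraspanin of the cell surface, neuronal enolase, a membrane-bound chemokine and the inhibitor IκBα. Ptma, H2afz and Gpx4 were in the same list of 10 at ratios of 1.28 (1.26 to 1.29), 1.40 (1.36 to 1.43) and 1.69 (1.64 to 1.74), below the rule. Smoc2 passed it among the 10 largest drops in FPKM. Of the others, Gcg, Chga, Ptprn and Peg3 had NIK to β-Gal ratios of 0.575, 0.500, 0.698 and 0.505, Atp5b and Cox6a1 of 0.820 and 0.789, and the mitochondrial genes mt-Co1 and mt-Nd1 of 0.916 and 0.953.

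Gene classes were formed by symbol, in 46 classes of 5 roles that hold 6547 protein-coding genes, of which 3408 passed the filter. In these 239 were higher (7.01%) and 52 lower (1.53%), against 5.03% and 1.08% of all protein-coding genes. More members were higher than lower in 38 classes, fewer in 2, and the counts were equal in 6. By role the share of higher genes was 15.3% of receptors and ligands (33 of 216), 8.90% of structural, adhesion and signalling genes (66 of 742), 6.93% of transporters and channels (26 of 375), 6.86% of enzymes (98 of 1429) and 3.23% of transcription factors and chromatin genes (22 of 681). Lower genes made up 3.70%, 1.21%, 3.73%, 1.19% and 0.587% of them in the same order. With a β-Gal FPKM of at least 1 the order of the roles was the same, with 11%, 7.33%, 5.49%, 4.41% and 2.26% higher, against 3.72% of all protein-coding genes.

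**Figure D3:**
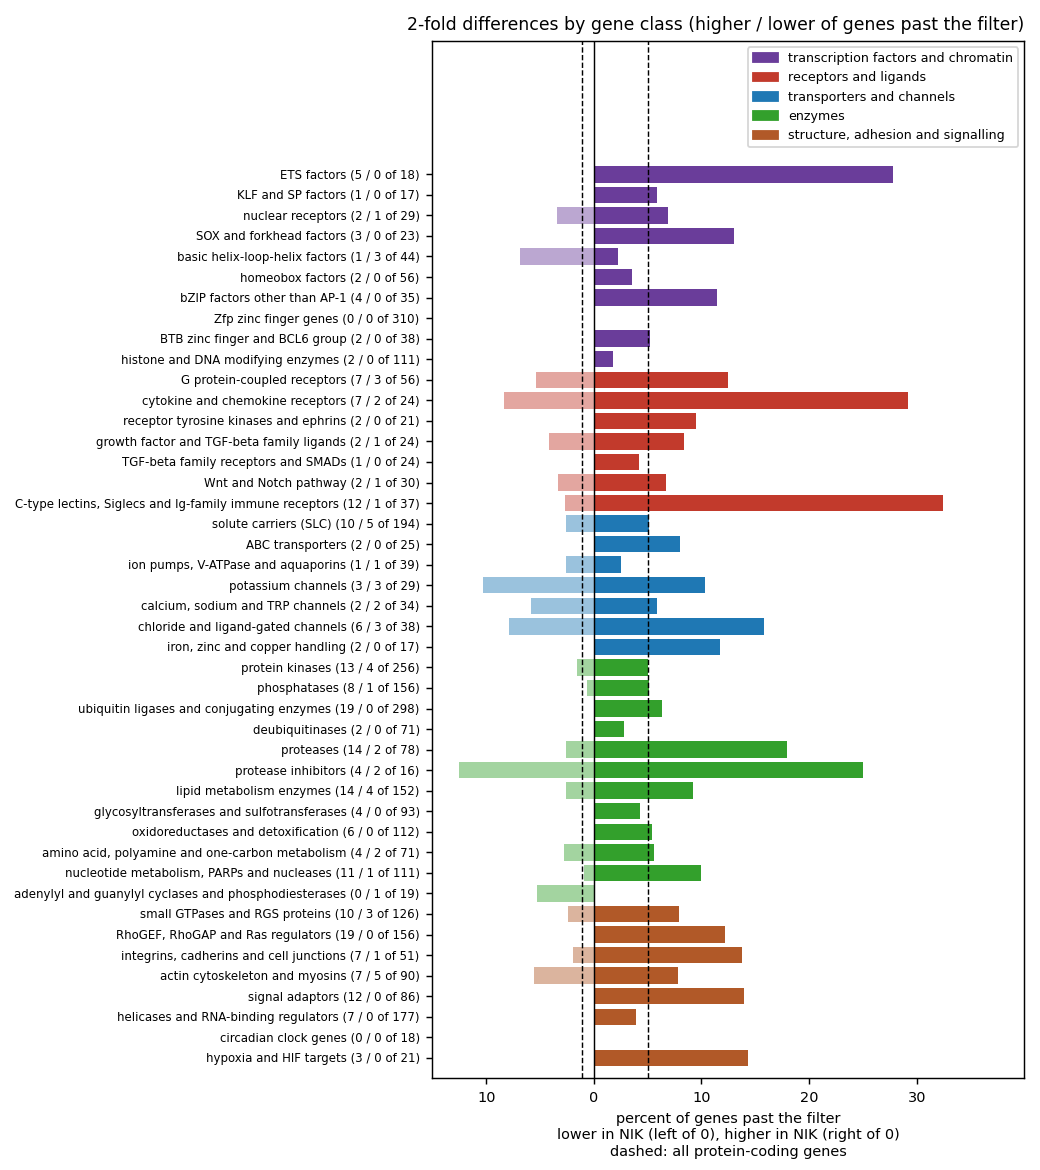
Percent of genes past the filter that were at least 2-fold higher (right) or lower (left) in NIK against β-Gal, for the classes with at least 15 such genes, coloured by role, with counts in the labels and dashed lines at 5.03% and 1.08% for all protein-coding genes. Immune surface receptors, cytokine receptors, ETS factors and protease inhibitors reach furthest right, and the Zfp and circadian clock classes have no bar.

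Of the 10 classes of transcription factors and chromatin genes 9 held at least 1 higher gene. Yet the share of higher genes in this role was below the background, at 3.23% against 5.03% of all protein-coding genes. With a β-Gal FPKM of at least 1 it was 2.26% against 3.72%. The Zfp zinc finger class made up 310 of the 681 genes in this role, with 0 higher. With that level in β-Gal it made up 305 of 664, again with 0 higher. The low share of the role thus rests largely on this class and does not describe the role's other classes. Of 18 ETS factors that passed the filter, of 26 in the genome annotation, 5 were higher and 0 lower, with a median difference of 0.47 against -0.02 for all protein-coding genes. Beside Spib these were the epithelial factors Ehf, Elf3 and Spdef and, named after its values were seen, Elk3. Ehf had an FPKM of 9.14 in NIK, 0.519 in NIK(KA) and 0.629 in β-Gal, 14.5-fold higher (9.09 to 24.6). Elf3 was at 16.5, 5.17 and 3.84 FPKM in NIK, NIK(KA) and β-Gal, 4.29-fold higher (3.46 to 5.36), and Elk3 at 5.44, 1.49 and 1.27. Spdef had 63 reads in NIK, 7 in NIK(KA) and 0 in β-Gal, at least 25.2-fold higher. With a β-Gal FPKM of at least 1 the class had 2 of 15 higher, Elf3 and Elk3. The other 3 were under 1 FPKM in β-Gal.

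Leucine-zipper factors outside AP-1 had 4 higher of 35, namely Batf, Batf3, Maff and Cebpd, and 0 lower. These shares, 11.4% and 0%, stand against 5.03% and 1.08% of all protein-coding genes. Batf, Maff and Cebpd were under 1 FPKM in β-Gal. With a β-Gal FPKM of at least 1, 1 of 31 was higher (3.23%), under the 3.72% of all protein-coding genes. Batf and Batf3 are partners of IRF factors in lymphocytes and dendritic cells. Batf had 51 reads in NIK, 0 in NIK(KA) and 1 in β-Gal, a ratio of 61.2 (10.5 to 2464). Batf3 had 99, 48 and 41 reads in NIK, NIK(KA) and β-Gal, 2.90-fold higher (1.99 to 4.28). Maff, a small MAF protein, was 18.2-fold higher (8.92 to 43.0), and Cebpd, a factor of the acute-phase response, 4.80-fold (2.83 to 8.55). Zbtb46, a factor of classical dendritic cells, had an FPKM of 5.71 in NIK, 0.584 in NIK(KA) and 0.261 in β-Gal, 21.9-fold higher (12.6 to 41.7). In the same BTB class Zbtb17, whose protein MIZ1 binds MYC, was 2.21-fold higher (2.04 to 2.40).

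Myc, a driver of cell growth, was at 20.8 FPKM in NIK, 3.05 in NIK(KA) and 2.72 in β-Gal, 7.63-fold higher (6.07 to 9.70). It was the only higher gene of 44 basic helix-loop-helix factors (2.27%), of which 3 were lower (6.82%). Of all protein-coding genes 5.03% were higher and 1.08% lower. The 3 lower factors were Nhlh2 at 1.20, 4.91 and 4.79 FPKM in NIK, NIK(KA) and β-Gal, Neurod2 at 2.64, 8.52 and 6.99, and Atoh8 at 34.5, 88.0 and 75.5. All 3 are neural or endocrine differentiation factors, and in each the NIK library was the low one. Among 23 SOX and forkhead factors Foxp4, Sox9 and Sox4 were 3.65-fold (3.40 to 3.91), 2.76-fold (2.37 to 3.22) and 2.37-fold (2.19 to 2.57) higher. Of 56 homeobox genes 2 were higher (3.57%, against 5.03% of all protein-coding genes), among them Tgif1, a repressor of TGF-β signalling, at 2.29-fold (1.99 to 2.63). Of 29 nuclear receptors Esrrg and the mineralocorticoid receptor Nr3c2 were higher, at 2.45-fold (2.15 to 2.79) and 2.54-fold (2.11 to 3.08), and the immediate early receptor Nr4a1 was 2.13-fold lower (1.95 to 2.32). Sp5, a Wnt target, was 3.01-fold higher (2.29 to 3.99), as the 1 such gene of 17 KLF and SP factors (5.88%, near that background).

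The broad chromatin and zinc-finger classes held few genes past the rule. Of 310 Zfp genes 0 were higher and 0 lower. Of 111 histone and DNA modifying enzymes 2 were higher, the histone demethylases Kdm1b at 3.15-fold (2.82 to 3.52) and Kdm2b at 2.16-fold (2.01 to 2.32), and 0 were lower. None of 18 circadian clock genes passed the rule.

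**Figure D4:**
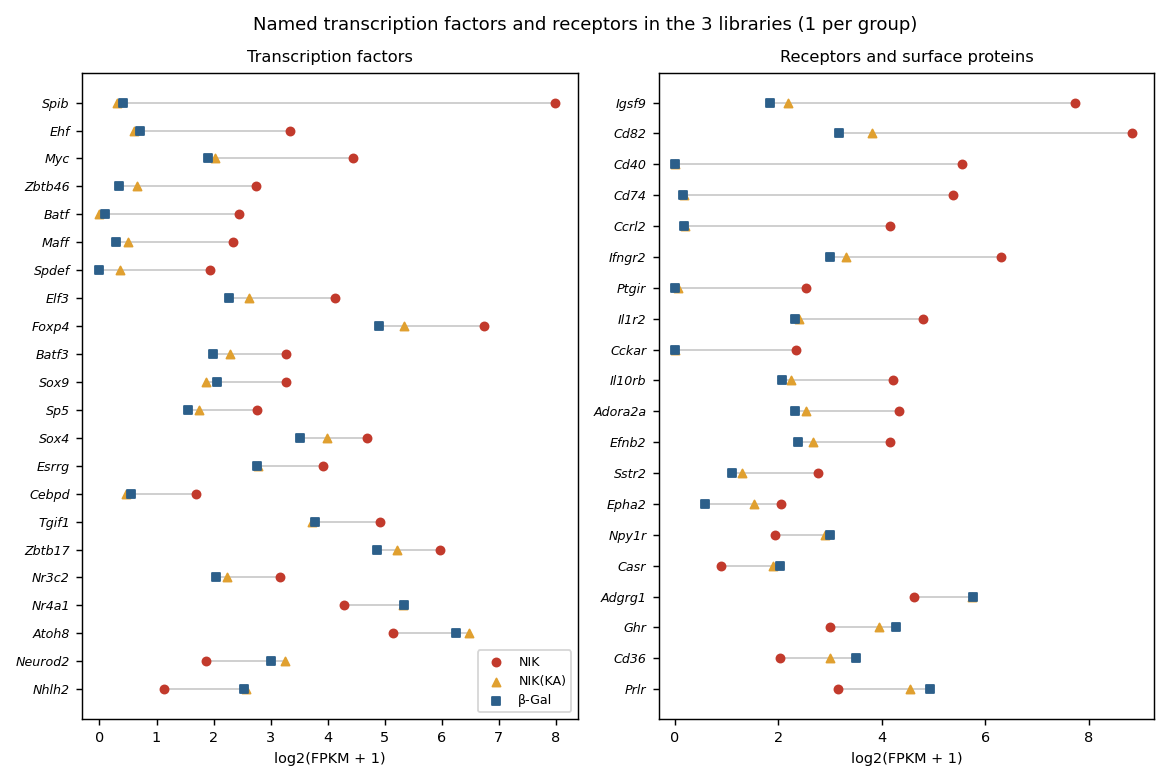
Levels as log2(FPKM + 1) of the named transcription factors (left) and receptors and surface proteins (right) in NIK (circles), NIK(KA) (triangles) and β-Gal (squares), 1 library each. For most genes the NIK(KA) and β-Gal points lie together and the NIK point apart, with Spib at the top and Prlr and Nhlh2 at the bottom.

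Of the 46 classes immune surface molecules had the largest share of higher members among genes past the filter, and cytokine receptors among genes with a β-Gal FPKM of at least 1. Of 37 C-type lectins, Siglecs, CD antigens and immunoglobulin-family receptors past the filter 12 were higher (32.4%) and 1 lower, and of the 28 with a β-Gal FPKM of at least 1 these counts were 5 (17.9%) and 1. Of all protein-coding genes 5.03% were higher, or 3.72% with that level in β-Gal. The class holds 194 genes, of which 157 did not pass. Igsf9, an immunoglobulin-family adhesion protein of neurons, was at 212 FPKM in NIK, 3.54 in NIK(KA) and 2.57 in β-Gal, 82.5-fold higher (65.6 to 105). Cd82 was 56.3-fold higher (47.7 to 67.0). Cd40, the TNF-family receptor that itself signals to NIK in B cells, had 777 reads in NIK, against 0 in NIK(KA) and in β-Gal, at least 311-fold higher. Cd74, the invariant chain of MHC class II, had 830 reads in NIK, 3 in NIK(KA) and 3 in β-Gal, a ratio of 332 (113 to 1613). The lower member was Cd36, a fatty acid transporter and scavenger receptor, at 3.08 FPKM in NIK, 6.96 in NIK(KA) and 10.4 in β-Gal, 3.38-fold lower (2.76 to 4.16).

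Receptors for cytokines were called in both directions. Of 24 past the filter 7 were higher (29.2%) and 2 lower (8.33%), with a median difference of 0.41. Of the 23 with a β-Gal FPKM of at least 1 these counts were 6 (26.1%) and 2 (8.7%). Of all protein-coding genes 5.03% were higher and 1.08% lower, or 3.72% and 1.1% with that level in β-Gal. Ifngr2, the signalling chain of the interferon-γ receptor, was at 77.6 FPKM in NIK, 8.95 in NIK(KA) and 7.03 in β-Gal, 11.1-fold higher (9.75 to 12.6). Ccrl2, an atypical chemoattractant receptor, had 430 reads in NIK and 4 in each of the other libraries, 129-fold higher (50.02 to 476). The IL-1 decoy receptor Il1r2 was 6.68-fold higher (5.14 to 8.80) and Il10rb, a shared chain of the IL-10 family receptors, 5.52-fold (4.37 to 7.04). The lower members were the receptors of 2 growth-regulating hormones. Prlr, the prolactin receptor, was at 7.95 FPKM in NIK, 22.4 in NIK(KA) and 29.7 in β-Gal, 3.74-fold lower (3.30 to 4.24). Ghr, the growth hormone receptor, was at 6.96, 14.4 and 18.3 FPKM in NIK, NIK(KA) and β-Gal, 2.63-fold lower (2.21 to 3.13). In both, NIK was lowest and NIK(KA) lay between it and β-Gal.

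G protein-coupled receptors had 7 higher (12.5%) and 3 lower (5.36%) of 56 that passed, out of 346. Of all protein-coding genes 5.03% were higher and 1.08% lower. With a β-Gal FPKM of at least 1 the share of higher receptors was 9.43%, against 3.72%. In 2 of the receptors the reads came almost wholly from NIK. Cckar, the cholecystokinin receptor of the exocrine pancreas, had 139 reads there, against 0 in NIK(KA) and in β-Gal, at least 55.6-fold higher. Ptgir, the prostacyclin receptor, had 226 reads in NIK, 2 in NIK(KA) and 0 in β-Gal, at least 90.4-fold higher. Sstr2, the somatostatin receptor through which δ cells restrain glucagon release, was at 5.81 FPKM in NIK, 1.45 in NIK(KA) and 1.16 in β-Gal, 5.01-fold higher (3.43 to 7.52). The adenosine receptor Adora2a was 4.74-fold higher (3.69 to 6.16). Lower were the calcium-sensing receptor Casr at 3.58-fold (2.56 to 5.12), the neuropeptide Y receptor Npy1r at 2.49-fold (2.03 to 3.07) and the adhesion receptor Adgrg1 at 2.27-fold (2.02 to 2.54).

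Morphogen and growth-factor genes showed single members on either side. The Notch ligand Dll1 was at 7.16 FPKM in NIK, 2.96 in NIK(KA) and 1.35 in β-Gal, 5.32-fold higher (3.56 to 8.19), and Psen2, a catalytic subunit of γ-secretase, which cleaves Notch, was 3.55-fold higher (3.21 to 3.94). Wnt4 was at 27.3 FPKM in NIK, 68.9 in NIK(KA) and 65.3 in β-Gal, 2.39-fold lower (2.27 to 2.53), and Bmp7 was 2.69-fold lower (2.03 to 3.59). Bmp1, a procollagen protease despite its name, and Fgf1 were 2.66-fold (2.34 to 3.03) and 2.32-fold (1.95 to 2.76) higher. The ligand Efnb2 was 4.01-fold higher (3.44 to 4.69). Its class also held the receptor Epha2, at 3.13 FPKM in NIK, 1.91 in NIK(KA) and 0.508 in β-Gal, where NIK(KA) was nearer to NIK.

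Transporters and channels included one of the 10 genes with the largest negative differences. Slc38a5, a transporter of glutamine and other neutral amino acids (chromosome X), fell to 83.5 FPKM in NIK, against 378 in NIK(KA) and 430 in β-Gal, 5.14-fold lower (4.91 to 5.40). Of 194 solute carriers past the filter 10 were higher and 5 lower, shares of 5.16% and 2.58% against 5.03% and 1.08% of all protein-coding genes. The share of higher ones was near that background, also with a β-Gal FPKM of at least 1, at 4.19% against 3.72%. Lower with it were the fructose transporter Slc2a5 at 57.7, 145 and 167 FPKM in NIK, NIK(KA) and β-Gal, the choline transporter-like Slc44a3 at 2.46, 10.3 and 10.3, the glycine transporter Slc6a5 at 14.6, 27.7 and 33.3, and, named after its values were seen, the myo-inositol transporter Slc5a3 at 7.11, 12.6 and 15.7. In all 5 the NIK library was lowest. The higher ones were led by Slc6a12, a betaine and GABA transporter, with 113, 2 and 6 reads in NIK, NIK(KA) and β-Gal, 22.6-fold higher (10.1 to 62.9). Slco5a1, an organic anion transporter family member, was 18.4-fold higher (11.1 to 32.7), Slc2a6, a hexose transporter family member, 5.43-fold (4.83 to 6.13), and Slc12a5, the potassium-chloride cotransporter of neurons, 3.64-fold (3.32 to 3.99).

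Ion channels were called in both directions, with few genes in each. Potassium channels had 3 higher and 3 lower of 29, or 10.3% each way, against 5.03% and 1.08% of all protein-coding genes. Kcnj15, Kcnt1 and Hcn3 were 23.1-fold (12.7 to 47.0), 4.89-fold (3.74 to 6.47) and 2.59-fold (2.39 to 2.81) higher. Kcnk16, the channel TALK-1 of islet cells, was at 1.90 FPKM in NIK, 9.51 in NIK(KA) and 9.17 in β-Gal, 4.81-fold lower (3.50 to 6.76). Kcnc4 was 4.25-fold lower (3.34 to 5.47) and Kcnh6 3.02-fold (2.78 to 3.28). Among 34 calcium, sodium and TRP channel genes Orai2, a store-operated calcium channel, was at 67.4 FPKM in NIK, 12.4 in NIK(KA) and 12.8 in β-Gal, 5.27-fold higher (4.84 to 5.75). The epithelial sodium channel subunit Scnn1a was 3.38-fold higher (2.65 to 4.36). Cacna1i, a T-type calcium channel, was 2.80-fold lower (2.57 to 3.05), and Mcub, a subunit of the mitochondrial calcium uniporter, 3.02-fold (1.98 to 4.72). Higher and lower genes each made up 5.88% of the 34. These shares rest on few genes, and that of higher ones was near the background.

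Of 38 chloride, connexin and ligand-gated channel genes 6 were higher (15.8%) and 3 lower (7.9%). Of all protein-coding genes 5.03% were higher and 1.08% lower. With a β-Gal FPKM of at least 1 the share of higher channel genes was 13.9%, against 3.72%. The volume-regulated anion channel subunits Lrrc8c and Lrrc8b were both higher, at 2.87-fold (2.57 to 3.20) and 2.56-fold (2.38 to 2.75). Clic4 was at 230 FPKM in NIK, 94.1 in NIK(KA) and 91.4 in β-Gal, 2.51-fold higher (2.44 to 2.59), and the connexin gene Gja4 had 157 reads in NIK, 6 in NIK(KA) and 3 in β-Gal, a ratio of 62.8 (21.1 to 308). The calcium-activated chloride channel genes Ano1 and Best3 were 2.91-fold (2.32 to 3.68) and 3.15-fold (2.53 to 3.94) lower, and Ttyh1 was 2.69-fold lower (2.49 to 2.90). The phospholipid flippase Atp11a was 2.35-fold higher (2.23 to 2.48). Of 25 ABC transporters the drug exporter Abcc1 and the sterol exporter Abcg1 were 2.29-fold (2.14 to 2.45) and 2.39-fold (2.01 to 2.85) higher. Of the iron and copper proteins the siderophore binder Lcn2 had 361 reads in NIK, 1 in NIK(KA) and 2 in β-Gal, a ratio of 217 (59.5 to 1796), and ceruloplasmin (Cp) was 21.8-fold higher (9.02 to 68.9).

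**Figure D5:**
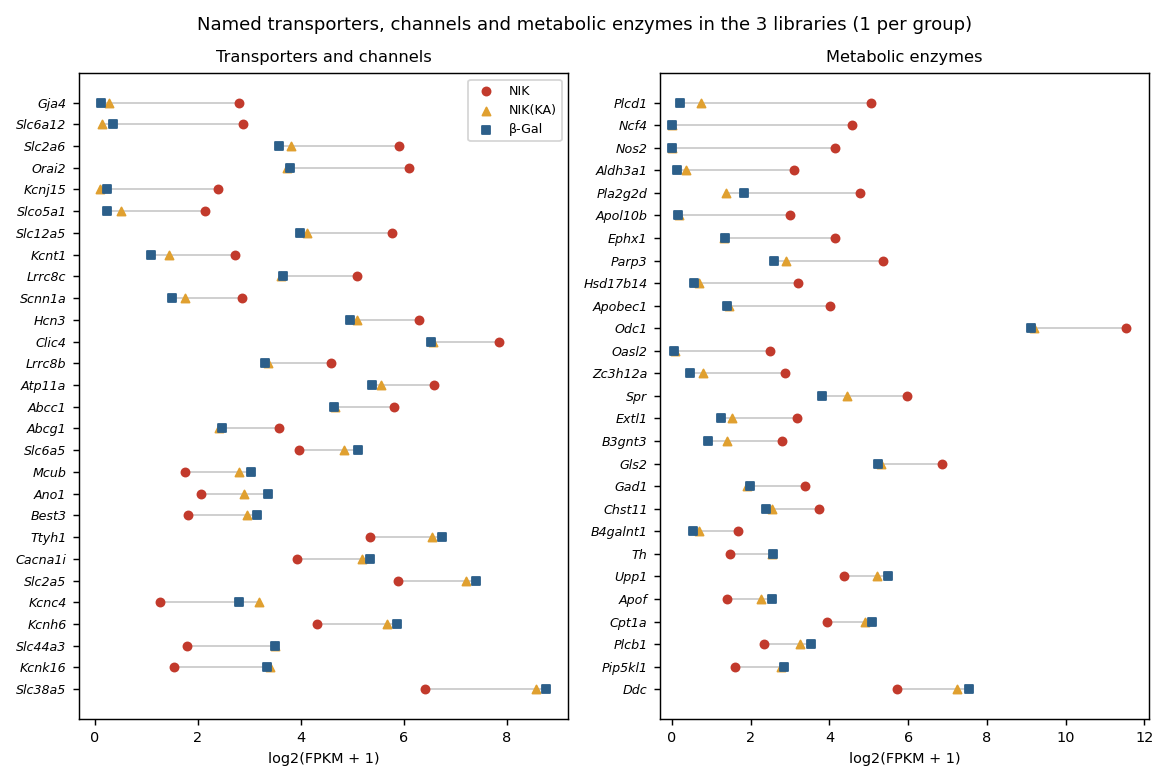
Levels as log2(FPKM + 1) of the named transporters and channels (left) and metabolic enzymes (right) in NIK (circles), NIK(KA) (triangles) and β-Gal (squares), 1 library each. Slc38a5 (83.5, 378 and 430 FPKM) and Ddc (51.3, 151 and 186 FPKM) stand at the bottom, where the NIK point lies left of the others, and Odc1 stands furthest right.

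Enzymes of amine and amino acid metabolism were called in both directions. Spr, sepiapterin reductase, which makes the cofactor tetrahydrobiopterin, was at 61.6 FPKM in NIK, 20.95 in NIK(KA) and 13.02 in β-Gal, 4.73-fold higher (4.24 to 5.29). Th, tyrosine hydroxylase, an enzyme that uses this cofactor, was at 1.79, 4.78 and 4.87 FPKM in NIK, NIK(KA) and β-Gal, 2.71-fold lower (1.84 to 4.09). Ddc, which decarboxylates the product of Th, was at 51.3, 151 and 186 FPKM, 3.63-fold lower (3.38 to 3.90). Gls2, a glutaminase, was at 116 FPKM in NIK, 38.3 in NIK(KA) and 36.3 in β-Gal, 3.18-fold higher (2.94 to 3.44), and Gad1, which makes GABA from glutamate, was 3.20-fold higher (2.55 to 4.04). Of 71 genes in this class 4 were higher and 2 lower, shares of 5.63% and 2.82% against 5.03% and 1.08% of all protein-coding genes. These shares rest on few genes, and that of higher ones was near the background.

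Of 112 oxidant and detoxifying enzymes 6 were higher (5.36%), a share near the 5.03% of all protein-coding genes. The class had 0 lower, where 1.08% of all protein-coding genes were lower. Of the 6 higher ones 5 were under 1 FPKM in β-Gal. Nos2, the inducible nitric oxide synthase, had 712 reads in NIK, with 0 in NIK(KA) and in β-Gal, at least 285-fold higher. Ncf4, a cytosolic subunit of the phagocyte NADPH oxidase, had 295 reads in NIK and 0 in the others, at least 118-fold higher. Aldh3a1, an aldehyde dehydrogenase, had 148 reads in NIK, 6 in NIK(KA) and 2 in β-Gal, a ratio of 88.8 (24.2 to 740), and Hsd17b14, a hydroxysteroid dehydrogenase, was 17.8-fold higher (7.86 to 49.8).

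Lipid enzymes had 14 higher (9.21%) and 4 lower (2.63%) of 152, against 5.03% and 1.08% of all protein-coding genes. With a β-Gal FPKM of at least 1 the share of higher ones was 6.85%, against 3.72%. Plcd1, a phospholipase C, was at 32.2 FPKM in NIK, 0.659 in NIK(KA) and 0.147 in β-Gal, 219-fold higher (100.2 to 598). The secreted phospholipase Pla2g2d was 10.3-fold higher (8.14 to 13.1), the epoxide hydrolase Ephx1 10.7-fold (7.49 to 15.7) and the apolipoprotein L gene Apol10b 64.8-fold (27.4 to 201). Cpt1a, the carnitine transferase that admits fatty acids to mitochondria, was at 14.4, 28.9 and 33.1 FPKM in NIK, NIK(KA) and β-Gal, 2.29-fold lower (2.13 to 2.47). Another phospholipase C gene, Plcb1, was 2.63-fold lower (2.23 to 3.11), and Pip5kl1 and Apof were 3.05-fold (2.12 to 4.49) and 2.92-fold (1.95 to 4.47) lower.

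Nucleic acid enzymes had 11 higher (9.91%) and 1 lower (0.901%) of 111, against 5.03% and 1.08% of all protein-coding genes. With a β-Gal FPKM of at least 1, 7.48% of these enzymes were higher, against 3.72%. Those named are Parp3, a DNA-repair ADP-ribosyltransferase, at 40.3 FPKM in NIK, 6.38 in NIK(KA) and 5.06 in β-Gal, the cytidine deaminase Apobec1 at 15.2, 1.72 and 1.64, and the ribonuclease Zc3h12a, which degrades inflammatory mRNAs, at 6.34, 0.738 and 0.377. Oasl2, an interferon-induced gene, had 95 reads in NIK and 1 in each other library, a ratio of 114 (19.98 to 4550). Upp1, uridine phosphorylase, was the lower gene, at 2.23-fold (1.92 to 2.60). Glycosyl- and sulfotransferases had 4 higher of 93, Extl1, B3gnt3, Chst11 and B4galnt1, at 2.88 to 6.64-fold, and 0 lower. Their share of higher genes, 4.30%, was under the 5.03% of all protein-coding genes. Among 21 hypoxia-linked genes the median difference was -0.33, yet Pfkfb3, a driver of glycolysis, the vasodilator peptide gene Adm and hexokinase 2 (Hk2) were 5.09-fold (4.51 to 5.76), 4.77-fold (3.34 to 6.96) and 4.43-fold (3.17 to 6.30) higher.

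Proteases had 14 higher (17.95%) and 2 lower (2.56%) of 78, against 5.03% and 1.08% of all protein-coding genes. With a β-Gal FPKM of at least 1, only 4 of 68 were higher, a share of 5.88%, against 3.72%. Mmp9, a matrix gelatinase, had 1151 reads in NIK, 15 in NIK(KA) and 0 in β-Gal, at least 460-fold higher. Casp4, an inflammatory caspase, had 443 reads in NIK, 1 in NIK(KA) and 0 in β-Gal, at least 177-fold higher, and the complement protease C1s1 had 218, 0 and 1 reads, a ratio of 262 (46.5 to 10380). The rhomboid protease Rhbdl2 was 26.7-fold higher (14.7 to 54.3). Of the lower ones, Ece1, the endothelin-converting enzyme, was at 2.51-fold (2.32 to 2.71). Of 16 protease inhibitors 4 were higher (25%) and 2 lower (12.5%), shares that rest on few genes. The granzyme inhibitor Serpinb9 was 2.80-fold higher (2.24 to 3.51). Serpina1a and Serpina1b, near-identical copies whose reads could be split between them, were 10.7-fold (7.93 to 14.7) and 24.8-fold (15.1 to 43.9) higher, and Serpinb8 was 2.44-fold lower (2.20 to 2.70). Spink4 had 5 reads in NIK, 12 in NIK(KA) and 37 in β-Gal, 6.17-fold lower (2.42 to 20.1).

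Of 298 ubiquitin genes 19 were higher (6.38%) and 0 lower, against 5.03% and 1.08% of all protein-coding genes. With a β-Gal FPKM of at least 1, 14 of 291 were higher (4.81%), against 3.72%. Both shares of higher genes were little above the background. Neurl3, a ubiquitin ligase, was at 65.2 FPKM in NIK, 1.99 in NIK(KA) and 0.282 in β-Gal, 231-fold higher (125 to 482). Uba7, the activating enzyme for the ubiquitin-like protein ISG15, was 108-fold higher (54.4 to 251), and Usp18, which removes ISG15, 2.68-fold (1.82 to 4.01). Birc3, which encodes cIAP2 of the complex that degrades NIK, had 202 reads in NIK and 0 in the others, at least 80.8-fold higher. The ligase genes Rnf19b and Smurf1 were 3.62-fold (3.37 to 3.90) and 3.30-fold (2.99 to 3.65) higher.

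Protein kinases were called higher at the background share, 13 of 256 (5.08%), or 9 of 250 (3.60%) with a β-Gal FPKM of at least 1, with 4 lower. Ikbke, an IKK-related kinase of the interferon pathway, was at 28.2 FPKM in NIK, 0.477 in NIK(KA) and 0.427 in β-Gal, 66.2-fold higher (41.1 to 114). Src, the membrane tyrosine kinase, was at 11.8, 0.676 and 0.534 FPKM, 22.1-fold higher (14.5 to 35.2). Mylk2, a myosin light chain kinase, and Ripk2, the kinase downstream of NOD receptors, were 9.50-fold (6.97 to 13.2) and 5.83-fold (5.15 to 6.62) higher. The lower kinase genes Speg, Cdk15, Wnk4 and Camk2b were 2.41 to 2.75-fold lower. Phosphatases had 8 higher (5.13%) and 1 lower of 156, and 6 of 153 higher (3.92%) with a β-Gal FPKM of at least 1, both near the 5.03% and 3.72% of all protein-coding genes. The inositol phosphatase Synj2 was 16.3-fold higher (10.7 to 26.1), Ptpn14 5.11-fold (4.03 to 6.55) and Dusp15 4.35-fold (3.56 to 5.36). Ptpn6, the leukocyte phosphatase SHP-1, had 43 reads in NIK, 6 in NIK(KA) and 3 in β-Gal, a ratio of 17.2 (5.51 to 86.7). Dusp5, an ERK phosphatase, was 2.40-fold lower (1.98 to 2.91). The guanylyl cyclase gene Gucy2c was the only one past the rule of 19 cyclase and phosphodiesterase genes, with 17 reads in NIK, 70 in NIK(KA) and 124 in β-Gal, 6.08-fold lower (3.65 to 10.8).

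Regulators of small GTPases and signal adaptors had 0 lower genes. Only 1.08% of all protein-coding genes were lower, so 0 lower in classes of this size is near the background. Of 156 RhoGEF, RhoGAP and Ras regulators 19 were higher (12.2%), against 5.03% of all protein-coding genes. Of the 151 with a β-Gal FPKM of at least 1, 15 were higher (9.93%), against 3.72%. Srgap3, a Rac GTPase-activating protein, was at 12.4 FPKM in NIK, 0.626 in NIK(KA) and 0.470 in β-Gal, 26.3-fold higher (18.9 to 37.6). Arhgap22 was 10.1-fold higher (5.97 to 18.1) and the Rac and Rap exchange factor Dock4 7.19-fold (6.29 to 8.25), while Dock10, an exchange factor of lymphocytes, had 218 reads in NIK and 1 in each other library, a ratio of 262 (46.5 to 10380). Of 86 signal adaptors 12 were higher (14.0%), and 10 of 83 (12%) with a β-Gal FPKM of at least 1, against the same 5.03% and 3.72%. Stap2, an adaptor of STAT3 signalling, was at 111, 1.77 and 2.34 FPKM in NIK, NIK(KA) and β-Gal, 47.3-fold higher (37.0 to 61.5). Tnfaip2, Tnip1 and Tnfaip3, all known TNF-induced or TNF-restraining genes, were 14.7-fold (10.8 to 20.5), 14.6-fold (13.1 to 16.4) and 13.3-fold (10.4 to 17.3) higher. The GTPase genes themselves had 10 higher (7.94%) and 3 lower (2.38%) of 126, against 5.03% and 1.08%. With a β-Gal FPKM of at least 1 the share of higher ones was 5.74%, against 3.72%. Rab20 had 71 reads in NIK, 2 in NIK(KA) and 0 in β-Gal, at least 28.4-fold higher, and Rgs13, Gem and Rhog were 9.82-fold (5.23 to 20.4), 5.69-fold (4.37 to 7.49) and 4.46-fold (3.89 to 5.14) higher. Diras2, Arl4d and Arl4a were 2.72-fold (2.50 to 2.98), 2.33-fold (2.02 to 2.70) and 2.15-fold (1.95 to 2.37) lower.

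Of 90 actin and myosin genes 7 were higher (7.78%) and 5 lower (5.56%), against 5.03% and 1.08% of all protein-coding genes. With a β-Gal FPKM of at least 1 the share of higher ones was 6.82%, against 3.72%. Fscn1, the bundling protein of filopodia and of dendritic cells, had 122 reads in NIK and 0 in the others, at least 48.8-fold higher. Marcksl1 was at 224 FPKM in NIK, 33.1 in NIK(KA) and 26.2 in β-Gal, 8.57-fold higher (7.95 to 9.25), and the actin-severing factor Dstn was 2.56-fold higher (2.45 to 2.66). Of 51 integrin, cadherin and junction genes 7 were higher (13.7%) and 1 lower (1.96%), against 5.03% and 1.08%. With a β-Gal FPKM of at least 1 the share of higher ones was 12%, against 3.72%. The tight-junction gene Cgn was 17.5-fold higher (13.7 to 22.5), Cdh22 5.75-fold (5.08 to 6.52) and Pcdh10 3.44-fold (3.27 to 3.61). Ceacam16 had 48 reads in NIK, 2 in NIK(KA) and 1 in β-Gal, a ratio of 57.6 (9.86 to 2322). The integrin Itga4, the partner chain of the receptors for the Madcam1 protein, was at 0.843, 1.65 and 3.03 FPKM in NIK, NIK(KA) and β-Gal, 3.59-fold lower (2.61 to 5.03). Of 177 helicase and RNA-binding genes 7 were higher (3.95%) and 0 lower. The share of higher ones was under the 5.03% of all protein-coding genes, of which 1.08% were lower. The 7 included the viral RNA sensors Ddx58 and Ifih1 at 26.4-fold (17.6 to 41.6) and 5.01-fold (3.91 to 6.49) and the poly(C)-binding gene Pcbp4 at 3.31-fold (3.11 to 3.52). No keratin or intermediate filament gene of 7 past the filter passed the rule.

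Markers of other cells were examined beside these classes. Of 10 leukocyte markers Cd74 alone was higher. The pan-leukocyte gene Ptprc had 0 reads in NIK, 1 in NIK(KA) and 0 in β-Gal, Cd3e had 0 in each, and Cd79a, Lyz2, Adgre1, Itgam and Csf1r had at most 19 reads in any library. Cd68 had 46, 24 and 43 reads in NIK, NIK(KA) and β-Gal and did not pass the rule. The 10 summed to an FPKM of 44.0 in NIK, 2.92 in NIK(KA) and 3.21 in β-Gal, of which Cd74 gave 40.4, 0.136 and 0.122. Of 7 markers of dendritic and M cells Zbtb46 and Tnfaip2 were higher, while Itgax, Flt3, Siglech, Gp2 and Ccl20 had at most 2 reads in any library, and the 7 summed to 27.9, 1.99 and 1.75 FPKM. Of 5 duct markers Sox9 alone was higher, with Krt19 at 0 in each library. The 5 summed to 11.3 FPKM in NIK, 6.27 in NIK(KA) and 6.54 in β-Gal, of which Sox9 gave 8.69, 2.63 and 3.15. Ins1, Ins2, Sst and Ppy, hormone genes of other islet cells, were listed at 0 in each library, and the 8 β-cell markers summed to 30.4, 43.9 and 36.4 FPKM with none past the rule. Nkx6-1 gave 29.6, 41.7 and 35.4 FPKM of these sums. Rbp4, on the δ-cell list with Sst, was at 341.5, 586.9 and 642.3 FPKM in NIK, NIK(KA) and β-Gal and did not pass the rule. Of 7 stroma markers Col1a2 was lower, and the 7 summed to 2.60, 2.50 and 4.19 FPKM. The 9 liver markers summed to 26.7, 17.4 and 6.12 FPKM, with Trf at 0 in each library. Serpina1a, the only higher one, gave 23.5, 1.95 and 2.20 FPKM of these sums, so the NIK sum rests mostly on this gene. Alb, serum albumin, was at 0.430 FPKM in NIK, 5.01 in NIK(KA) and 1.08 in β-Gal. No marker of endothelium or acinus passed the rule. The part of these cells in the class counts was not tested.

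Some of the lower genes were high in the β-Gal library alone. Smoc2, a matrix protein gene, had 7 reads in NIK, 4 in NIK(KA) and 74005 in β-Gal, 8810-fold lower in NIK (4275 to 21912). Of 10 heart muscle markers 6 passed the filter and all 6 were lower, the list summing to 1.66 FPKM in NIK, 2.46 in NIK(KA) and 35.3 in β-Gal. Each of the 6 was under 1 FPKM in NIK and in NIK(KA) and passed only through β-Gal, so the filter set their direction. Myl2, a ventricular myosin light chain, had 0, 0 and 89 reads in NIK, NIK(KA) and β-Gal, at least 24.7-fold lower. Myl3 had 0, 1 and 68 reads, at least 18.9-fold lower. The oxygen carrier Mb had 2, 1 and 102 reads, a ratio of 42.5 (11.5 to 356), and Myh6 had 3, 8 and 88, a ratio of 24.4 (8.09 to 121). Actc1 had 4, 8 and 85, 17.7-fold lower (6.67 to 66.5), and Tnni3, named after its values were seen, had 8, 5 and 54. In each of these the β-Gal library was high and both other libraries were low. All 5 lower members of the actin and myosin class are among them. The part of other cells in these values was not tested. With Smoc2, the heart muscle list and the liver list taken out, which was decided once values were known, the counts were 665 higher and 185 lower.

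Of the remaining lower genes with the largest differences, Scgn, which encodes the calcium sensor secretagogin of endocrine cells, was at 6.996 FPKM in NIK, 31.4 in NIK(KA) and 38.9 in β-Gal, 5.56-fold lower (4.37 to 7.16). Gm11084, a predicted gene, had 0, 2 and 5 reads in NIK, NIK(KA) and β-Gal, too few to set a direction. Lower protein-coding genes were at an FPKM under 1 in NIK in 18 cases, and 3 had 0 reads there. Noncoding genes and those of other types made up 1800 of the genes compared, with 105 higher and 72 lower. Of all genes compared 5.14% were higher and 1.48% lower. Among these higher and lower genes of all types, 38 and 38 lacked a counting interval that excluded 1. All 561 higher protein-coding genes and 119 of the 120 lower ones had such an interval. Calls not separated from counting error thus lay almost wholly among the noncoding and other types.

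Some higher genes were neighbours on the chromosome. Counting only protein-coding genes past the filter, 135 of the 561 lay in 60 runs of at least 2 adjacent higher genes, and 37 lay in 11 runs of at least 3. With 5.03% of these genes higher, some runs would arise in any order of genes. How many was not worked out, and some runs hold related genes side by side. These counts by themselves therefore show no clustering. Mmp13, Tmem123, Birc2 and Birc3 formed one run on chromosome 9 (7272514 to 7873186), and Gbp9, Gbp4, Lrrc8b and Lrrc8c another on chromosome 5 (105077630 to 105613018). Psmb9, Tap1, Psmb8 and Tap2 stood within 34.3 kb on chromosome 17, and H2-D1, H2-Q4, H2-Q6 and H2-Q7 formed a further run on that chromosome, where reads of near-identical copies could be shared. The runs put members of unlike classes side by side, such as the anion channel subunits next to guanylate-binding proteins. By chromosome the share of higher genes ranged between 2.33% on chromosome 19 and 7.52% on chromosome 6.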

How the data were processed

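RNA sequencing was done on 3 libraries of αTC1-6 cells, 1 per adenovirus. HTSeq 0.6.1 and TopHat2 were used with build GRCm38, per the submitters' processing notes. Not given in the sources used here are what each tool did, the gene annotation and whether counting used strand. For each library the authors deposited FPKM for 52948 gene IDs, and no column was left out. Symbols, types and coordinates came from GENCODE M21 for 52489 IDs. Without a stated strand setting, reads of overlapping genes cannot be told apart, and 49 of the 201 named genes share an exon with another annotated gene, among them Elf3, Zbtb17, Il10rb, Parp3, Gls2, Plcb1 and Cp.

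The deposited values were read as whole numbers of reads divided by gene length and library total. The totals were solved from the ratios of values, and whole reads, within 0.001 of a read, were recovered for 97.3% of detected genes. They serve the folds with their exact conditional binomial intervals, the bounds for counts of 0, the shares of reads and the 20-read rule for named genes. The 2-fold rule used the deposited FPKM. Without molecular identifiers reads need not be independent molecules. Recovery and the 2-fold rule were tested on simulated data. With 1 library per group no test of the conditions was run.

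The members and gene lists were chosen with earlier results of these data known. The classes were set by symbol pattern, and genes that a pattern caught by mistake were taken out by name after values were seen. The named genes are up to 4 higher and 4 lower members of each class with at least 20 reads in the higher library, the 10 largest differences each way among protein-coding genes, the 10 with the largest rise and fall in FPKM, Map3k14 and Gcg. A few genes that the rule names are not reported here. Any other gene, cell markers aside, was chosen after its values were seen, which covers the genes in chromosomal runs. Promoters and motif matches used RefSeq windows matched by symbol, found for 8857 of 11150 protein-coding genes. Python 3.11.15, pandas 2.3.3, numpy 2.4.6, scipy 1.17.1 and matplotlib 3.10.9 were used.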

Additional observations from a re-analysis of the deposited data

How the results depend on the processing

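Of the counts of higher (666) and lower (192) genes, both moved by over 1.5 times with a pseudocount of 5, to 357 and 54, and with the filter raised to a mean of 5 FPKM, to 392 and 106, where fewer genes were compared. The count of lower genes also moved with a pseudocount of 0.1, to 357, and with protein-coding genes alone, to 120. Every other alternative kept both counts within 1.5 times, at 628 to 884 higher and 154 to 255 lower: no filter, a filter over NIK and β-Gal, TPM, upper-quartile or median-ratio scaling, an interval that excludes 1, and leaving out Smoc2 and the heart muscle and liver markers. Scaling shifted all differences by at most 0.04. With a pseudocount of 5, 116 of 189 named genes past the rule kept a 2-fold difference. No named gene changed sign under any alternative, but for those past the rule this was settled beforehand. A pseudocount or a filter cannot change a sign, and the scaling shifts were far smaller than the 2-fold rule. The classes held 137 higher and 18 lower genes with that pseudocount, against 239 and 52. The median difference changed sign under at least 1 alternative in 20 of 46 classes, in 11 of them with another scaling. Among these, growth factor ligands ranged between -0.16 and 0.18 and G protein-coupled receptors between -0.10 and 0.03. The medians given for ETS factors (0.47) and cytokine receptors (0.41) kept their sign, at 0.23 to 0.61 and 0.10 to 0.47; the lowest came with a mean of at least 5 FPKM for ETS factors and without a filter for cytokine receptors. With the class patterns as first written, 243 were higher and 52 lower. No paired analysis was possible because each group held 1 library.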
